A study of Mus musculus with 17 samples.

Results

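This comparison set potassium chloride against sodium chloride in mouse macrophages kept in tumour-conditioned medium. Its members were the 3 libraries labelled with KCl (KCl 1 to 3) and the 2 labelled with NaCl (NaCl 1 and 2), 5 of the 17 libraries of the series. Of 55401 gene identifiers in the table, 13367 passed the low-count filter and were tested. All 5 libraries came from bone marrow-derived macrophages of C57BL/6J mice, as did 3 libraries from conditioned medium without added salt that are given beside them as background. These are macrophages grown in culture from bone marrow, and the medium was conditioned by B16F10, a mouse melanoma line. Exposure lasted 6 hours, and the salt added to the medium came to a final 40 mM in both groups, not counting salts of the medium itself. No allele or transgene is named for these groups. The labels state neither the age and number of the mice nor whether replicates were separate animals or cultures. The p-values then reflect only how these libraries varied, which may be technical.

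As background, a macrophage holds much potassium and little sodium inside, and raising potassium outside flattens the gradient that sets its membrane voltage. NaCl at the same concentration adds a like load of salt and chloride without that change. The comparison therefore sets added potassium against added sodium. An effect of the added potassium cannot be told apart from an effect of the added sodium. Loss of potassium from the cell is a known trigger of the NLRP3 inflammasome, which matures the cytokine IL-1β. A salt load is known to act through the transcription factor NFAT5, which turns on carriers and enzymes for osmolytes. Kcnj2 encodes the inwardly rectifying potassium channel Kir2.1.

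The inflammatory cytokine gene Il1b and 6 other genes were lower with KCl than with NaCl, and the airway secretory protein gene Scgb1a1 was higher. These 8 genes were the ones past an adjusted p of 0.05 in edgeR's quasi-likelihood test of the 5 libraries, 0.0598% of the genes tested (0.00748% higher and 0.0524% lower). Levels of the KCl libraries did not overlap those of the NaCl libraries for 53.3% of genes (25.6% higher and 27.6% lower with KCl), and 4151 genes (31.1%, 16.1% higher and 15% lower) had an unadjusted p under 0.05 in edgeR. The KCl libraries varied more among themselves (28.8 to 89.1 for their 3 pairs, as chi-square of the counts over its degrees of freedom) than the NaCl pair (4.62). A second fit, brought forward after these results were seen, describes the gene lists. It is limma's voom with 1 weight per group, called the weighted fit here, and gives the KCl libraries less weight (0.597 against 2.17). It called 2827 genes, 21.1% of those tested, 11.6% higher and 9.55% lower. It called 0 genes without NaCl 1 and 0 without NaCl 2 (2049 and 1596 with an unadjusted p under 0.05 in limma). It called 8 genes without KCl 1, 1418 without KCl 2 and 5277 without KCl 3. The edgeR test called 0 genes without KCl 1, NaCl 1 or NaCl 2 (2416, 1997 and 1499 with an unadjusted p under 0.05), 19 without KCl 2 and 5396 without KCl 3.

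Transcript length moved with the KCl label. Short transcripts were higher and long ones lower in each KCl library, most in KCl 1 and KCl 2. The slope of log2 level on log2 transcript length was −0.13 in KCl 1, −0.15 in KCl 2 and −0.04 in KCl 3, against 0.03 and 0.09 with NaCl. These slopes do not overlap between the groups, so a length-dependent step in making the libraries and an effect of KCl on short or long transcripts cannot be told apart. Results for many lists and some genes are therefore also given after each library's trend on length was removed. That removal left 39 genes past the edgeR threshold (0.292% of those tested, 8 or 0.0598% higher and 31 or 0.232% lower), among them the same 8 genes. Values with the length slope as a covariate come from an edgeR fit of 11 C57BL/6J libraries. List medians are of edgeR's log2 fold changes. List counts from the weighted fit stand beside the 11.6% of all genes that were higher and the 9.55% lower in it. The summed level of 12 macrophage markers overlapped (KCl 27880 to 31129 CPM, NaCl 28794 to 29474 CPM), most of it Lyz2, where CPM is the count relative to the library's total, scaled by TMM factors. Of these markers, 4 were lower (Adgre1, Csf1r, Mertk and Cd14) and 4 higher (Itgam, Aif1, Tyrobp and Laptm5) with KCl in the weighted fit. Adgre1, the gene of the F4/80 antigen, was at 1141, 1130 and 1334 CPM with KCl and 1682 and 1705 CPM with NaCl. In such bulk samples, fewer cells of a type and less RNA per cell cannot be told apart.

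Il1b, on the minus strand of chr2:129364570-129371139 (GRCm38), encodes IL-1β. Its level was 703, 691 and 707 CPM in KCl 1, 2 and 3. It was 1911 and 1693 CPM in the NaCl libraries. Conditioned medium alone gave 4057, 3958 and 3676 CPM. The KCl libraries lay close together below both NaCl libraries, and these lay below all libraries without added salt. The KCl level was 2.59-fold below that with NaCl (log2 fold change −1.37, SE 0.12, adjusted p = 0.0267, edgeR).

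C5ar1, on the minus strand of chr7:16246743-16259540, encodes the receptor for the complement fragment C5a, which draws and activates myeloid cells. Its level was 72.1, 79.9 and 70.0 CPM with KCl and 173 and 165 CPM with NaCl. Without added salt it was 362, 347 and 355 CPM. The groups did not overlap, with a difference of −1.20 on the log2 scale (SE 0.12, adjusted p = 0.0296, edgeR). Itga4, on the plus strand of chr2:79255426-79333123, encodes the integrin α4 subunit by which leukocytes bind vascular endothelium. Its level was 34.1, 38.7 and 37.3 CPM with KCl and 82.0 and 84.9 CPM with NaCl, against 122, 122 and 138 CPM without salt. Again the groups stood apart, with a log2 fold change of −1.20 (adjusted p = 0.0296, edgeR).

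Kctd12, on the minus strand of chr14:102976581-102982637, encodes an auxiliary subunit of the GABA-B receptor. It was at 104, 114 and 115 CPM with KCl and at 227 and 223 CPM with NaCl. Medium without salt gave 837, 874 and 864 CPM, well above both salts. KCl differed from NaCl by −1.03 on the log2 scale (SE 0.12, adjusted p = 0.0493, edgeR). March1, a ubiquitin ligase gene whose product removes MHC class II from the surface (chr8:65617900-66471637, plus strand), showed the same order. It was at 12.6, 13.2 and 14.6 CPM with KCl, 36.5 and 35.1 CPM with NaCl, and 130, 136 and 134 CPM without salt (log2 fold change −1.42, adjusted p = 0.0296, edgeR). The MHC class II genes themselves had values near 0: H2-Aa 0.02, H2-Ab1 0.19 and Cd74 0.01 on the log2 scale, from edgeR, none past either threshold.

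Sema4a, a semaphorin gene of antigen-presenting cells (chr3:88435959-88461182, minus strand), was at 29.8, 24.9 and 29.6 CPM with KCl and 70.5 and 62.3 CPM with NaCl (log2 fold change −1.25, adjusted p = 0.0493, edgeR). Neat1, the long noncoding RNA that builds nuclear paraspeckles (chr19:5824708-5845478, minus strand), was at 244, 236 and 185 CPM with KCl and 624 and 587 CPM with NaCl. Medium without salt gave 1391, 1376 and 1504 CPM. In both genes the KCl libraries lay below the NaCl libraries, and for Neat1 the log2 fold change was −1.46 (adjusted p = 0.0296, edgeR). Its longest transcript has 20771 bases, and after removal of the length trend its log2 fold change was −1.31 (adjusted p = 0.0456, edgeR).

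Scgb1a1, the gene of the club cell secretory protein of the airway (chr19:9083636-9087958, minus strand), was the 1 gene called higher with KCl. Its level was 16.4, 12.7 and 15.2 CPM with KCl, 1.73 and 0.972 CPM with NaCl, and 1.39, 1.17 and 0.640 CPM without salt. It was 10.8-fold higher with KCl (log2 fold change 3.43, SE 0.28, adjusted p = 0.0267, edgeR). Scgb1a1 was not confined to the KCl libraries. It had 244, 143 and 243 raw counts in KCl 1, 2 and 3 and up to 78 in any of the 14 libraries outside the KCl group. Other transcripts of lung epithelium stood in the KCl libraries. Sftpc, the surfactant protein C gene of alveolar type II cells, had 99, 112 and 51 raw counts in KCl 1, 2 and 3, 0 in both NaCl libraries and at most 1 in any of the 14 libraries outside the KCl group. Over the libraries of each group it was at least 68.2-fold higher with KCl, taking 3 counts over both NaCl libraries as the limit that 0 allows for counting error.

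A list of 20 lung and airway genes was written after these values were seen. Of it, 9 genes had counts in all 3 KCl libraries and 0 in both NaCl libraries: Sftpc, Sftpa1, Sftpb, Sftpd, Scgb3a2, Cyp2f2, Cldn18, Sec14l3 and Inmt. They summed to 174, 185 and 100 raw counts in KCl 1, 2 and 3, and to 2, 1 and 1 in medium without salt. Sftpa1, another surfactant gene, had 34, 17 and 9 counts, and Cyp2f2, a club cell cytochrome P450 gene, had 9, 16 and 17. The summed level of the whole list ranged over 59.9 to 71.3 CPM in KCl libraries and 43.1 to 45.1 CPM in NaCl libraries. Napsa, which macrophages also express, made up 39.7 and 42.1 CPM of it in NaCl 1 and 2, 34.0 and 47.1 CPM in KCl 1 and 3, and less than the other genes together in KCl 2. Of 10 epithelial and endothelial markers, Krt8, Cdh1, Sftpc and Tek were at 0 with NaCl and none was at 0 throughout with KCl. The summed level of all 10 was 27.1 to 31.0 CPM with KCl against 7.81 to 9.44 CPM with NaCl. Most of the KCl sum was Scgb1a1 and Sftpc, the latter at 6.65, 9.98 and 3.19 CPM. Pecam1 (3.83, 4.01 and 5.44 CPM with KCl, 3.93 and 4.75 CPM with NaCl) and Kdr overlapped between the groups. The part of lung transcripts in the call of Scgb1a1 was not tested.

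**Figure D1:**
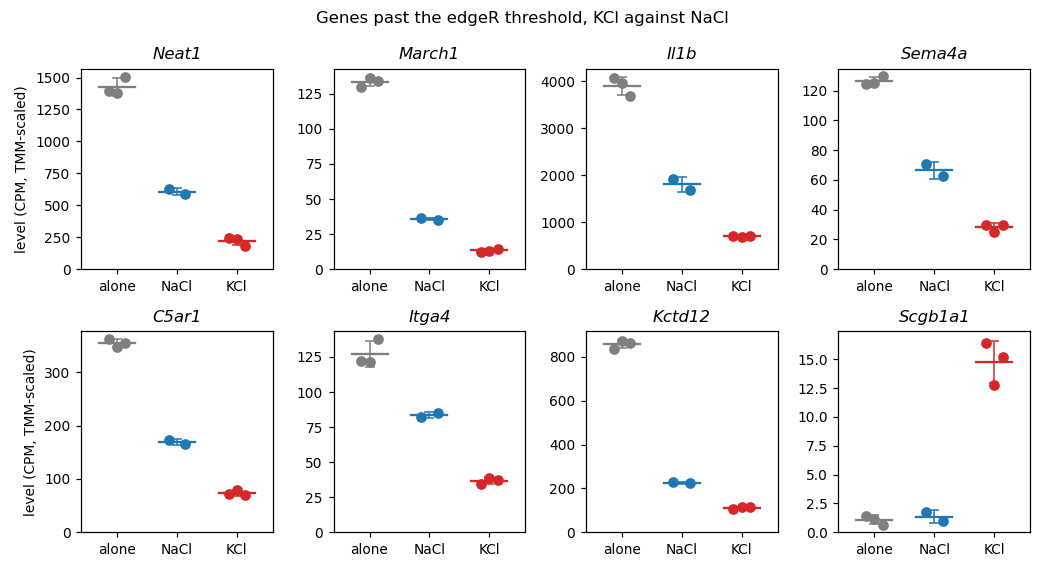
Level (CPM, TMM-scaled, linear axis from 0) of the 8 genes past the edgeR threshold in conditioned medium alone (grey, 3 libraries), with NaCl (blue, 2) and with KCl (red, 3). Points are libraries, wide lines group means and bars 1 SD. In 7 genes the order is medium alone, then NaCl, then KCl, and Scgb1a1 is high in the KCl libraries.

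Promoter letters are shown for the 2 of these genes whose windows held a match to a searched motif other than the short GGAAA. Windows of 300 bases, 250 before and 50 after a start, came from RefSeq on GRCm38.p6, and 9742 of the 13367 genes tested had one, 6 of the 8 called genes among them. The 250 bases before the start follow, each 5′ to 3′ on the gene's own strand, which is the minus strand for both (chr2:129371140-129371389 for Il1b and chr7:16259339-16259588 for C5ar1). Capitals mark a C/EBP match in Il1b and a match to the interferon-response core in C5ar1, and GGAAA is not marked.
Il1b: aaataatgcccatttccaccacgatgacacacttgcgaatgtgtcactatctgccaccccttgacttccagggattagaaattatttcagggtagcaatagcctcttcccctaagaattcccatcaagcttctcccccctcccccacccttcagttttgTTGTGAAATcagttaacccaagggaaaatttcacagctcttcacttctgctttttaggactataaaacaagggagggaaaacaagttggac
C5ar1: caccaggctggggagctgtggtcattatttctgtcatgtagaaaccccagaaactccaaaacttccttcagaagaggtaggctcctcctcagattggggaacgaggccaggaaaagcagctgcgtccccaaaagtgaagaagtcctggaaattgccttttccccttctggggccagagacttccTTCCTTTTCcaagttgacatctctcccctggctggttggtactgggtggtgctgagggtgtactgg
The RefSeq start of C5ar1 lies 202 bases from the 5′ end of the gene in GENCODE. Motifs were searched on both strands as the interferon-response (ISRE) core GAAANNGAA, AP-1 as TGANTCA, CRE as TGACGTCA, C/EBP as TTNNGNAAT, NFAT as GGAAA, which overlaps the ISRE core in letters, and NF-kB by its consensus. Of the 6 windows, 1 held the C/EBP letters and 1 the ISRE core, and none held AP-1, CRE or NF-kB letters, while 7.14%, 7.31%, 4.8%, 3.28% and 7.14% of all windows held these in the same order. GGAAA stood in 4 of the 6 windows and in 59.2% of all. Among genes of the weighted fit, the ISRE core stood in 7.45% of windows of those higher and 7.9% of those lower with KCl, and NF-kB letters in 6.79% and 6.8%. In windows of the interferon-stimulated genes described below the core was more frequent (17 of 30, 56.7%), as in windows of NF-kB components for NF-kB letters (7 of 20). A match is a description of letters and shows no binding.

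Of 17 inflammatory cytokine genes tested, 1 passed in edgeR (Il1b), and in the weighted fit 7 were lower and 1 higher, where 9.55% of all genes were lower and 11.6% higher. Their median log2 fold change was −0.47, against −0.03 for all genes tested, and −0.59 with the length trend removed. Chemokine genes, a separate list, did not follow: of 18 tested, 2 were higher (Ccl2 and Ccl7) and 1 lower (Ccl22) in the weighted fit. The chemokine median was 0.10, turning to −0.30 with the length trend removed. Il1a, the gene of the alarmin IL-1α, was at 57.1, 70.7 and 83.8 CPM with KCl and 175 and 169 CPM with NaCl (log2 fold change −1.31, adjusted p = 0.00415, weighted fit in limma). Il12b, which encodes the subunit shared by IL-12 and IL-23, was at 1.68, 1.34 and 1.75 CPM with KCl and 5.24 and 5.32 CPM with NaCl (log2 fold change −1.70, adjusted p = 0.0119, weighted fit). Il12a, the other IL-12 subunit, had a log2 fold change of −1.46 (adjusted p = 0.0143, weighted fit). In all 3 genes each KCl library lay below both NaCl libraries, and both NaCl libraries lay below all libraries without salt.

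Tnf, encoding a cytokine that activates endothelium, was at 2195, 2293 and 2087 CPM with KCl and 3085 and 2954 CPM with NaCl. Without salt it was at 2675, 2661 and 2617 CPM, so that the KCl libraries lay below and the NaCl libraries above medium alone. Its log2 fold change in edgeR was −0.47 (adjusted p = 0.0677, and 0.0142 in the weighted fit). Nos2, the inducible nitric oxide synthase gene, was at 15.2, 14.1 and 25.2 CPM with KCl and 28.7 and 32.3 CPM with NaCl, against 10.4 to 14.2 CPM without salt (log2 fold change −0.75 and adjusted p = 0.105 in edgeR, adjusted p = 0.0257 in the weighted fit). KCl 3 was nearest to the NaCl libraries for Nos2, and once the length slope was a covariate its sign turned (0.39, adjusted p = 0.585, edgeR). Il6, which encodes an acute-phase cytokine, was at 64.5, 96.3 and 39.4 CPM with KCl and 111 and 91.6 CPM with NaCl, overlapping levels that passed no threshold (adjusted p = 0.213, edgeR). Il15, a growth factor gene for natural killer cells, was the member higher in the weighted fit (log2 fold change 0.47, adjusted p = 0.0434 there).

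Kcnj2, Mrc1 and Vegfa passed neither threshold. Kcnj2 itself was at 291, 319 and 311 CPM with KCl and 223 and 267 CPM with NaCl, and at 78.3 to 81.4 CPM without salt. All salt libraries lay above medium alone, and the difference between the salts was small (log2 fold change 0.32, adjusted p = 0.150, edgeR). Mrc1, the mannose receptor gene of alternatively activated macrophages, was at 201, 231 and 170 CPM with KCl and 145 and 170 CPM with NaCl (log2 fold change 0.34, adjusted p = 0.188, edgeR). Vegfa, the vascular growth factor gene, was at 25.4, 28.3 and 28.6 CPM with KCl and 29.1 and 29.3 CPM with NaCl (log2 fold change −0.10, adjusted p = 0.639, edgeR). Arg1 did not pass the low-count filter.

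Genes that sense microbes and build the inflammasome were among the lower ones. Of 21 genes on a list of Toll-like and related receptors and C-type lectins, 8 were lower and 1 higher in the weighted fit. Their median log2 fold change was −0.31, −0.38 with the length trend removed and −0.15 once the length slope was a covariate. Tlr8, an endosomal receptor for RNA, was at 5.24, 5.35 and 12.3 CPM with KCl and 47.1 and 52.8 CPM with NaCl. Medium alone gave 36.8, 35.2 and 46.0 CPM. The KCl libraries were thus far below both other groups, with KCl 3 the nearest (log2 fold change −2.70, SE 0.35 and adjusted p = 0.0609 in edgeR, adjusted p = 0.00358 in the weighted fit). Tlr1, which pairs with TLR2 to bind lipopeptides, was at 137, 148 and 196 CPM with KCl and 305 and 303 CPM with NaCl (log2 fold change −0.94, adjusted p = 0.0107, weighted fit). Tlr7, another RNA receptor, and Nod2, a receptor for bacterial wall fragments, had log2 fold changes of −0.73 and −0.79 (adjusted p = 0.0139 for both, weighted fit). Once the length slope was a covariate, Tlr8 stood at −1.53 (adjusted p = 0.00702, edgeR). In that fit Tlr1, Tlr7 and Nod2 stood at −0.44, −0.15 and −0.08 (adjusted p = 0.183, 0.744 and 0.919, edgeR).

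Nlrp3, the sensor of the potassium-responsive inflammasome, was at 86.1, 75.3 and 133 CPM with KCl and 238 and 258 CPM with NaCl. Medium alone gave 221, 230 and 247 CPM, overlapping the NaCl libraries. Its log2 fold change in edgeR was −1.34 (adjusted p = 0.0668, and 0.00854 in the weighted fit), and −0.49 once the length slope was a covariate (adjusted p = 0.191, edgeR). Of 19 inflammasome and pyroptosis genes, 5 were lower (26.3%) and 2 higher (10.5%) in the weighted fit, where 9.55% and 11.6% of all genes were. The median was −0.31, −0.19 with the length trend removed and −0.14 once the length slope was a covariate. Casp1, whose product cleaves pro-IL-1β, had a log2 fold change of 0.02 (adjusted p = 0.911, weighted fit). Of 24 NF-kB components and feedback genes, 6 were lower and 0 higher in the weighted fit. Their median was −0.20, −0.23 with the length trend removed and −0.09 once the length slope was a covariate. Those lower were feedback or accessory genes such as Nfkbie (−0.72) and Tnfaip3 (−0.54), whereas the inhibitor gene Nfkbia stood at −0.05 (adjusted p = 0.770, weighted fit).

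Of 24 chemokine, formyl peptide and purine receptor genes, 5 were lower and 2 higher in the weighted fit (median −0.19). Fpr1, a receptor for bacterial formyl peptides, was at 114, 104 and 146 CPM with KCl and 269 and 253 CPM with NaCl (log2 fold change −1.13, adjusted p = 0.00677, weighted fit). Gpr84, a receptor for medium-chain fatty acids, was at 21.8, 18.5 and 26.1 CPM with KCl and 52.6 and 48.2 CPM with NaCl, against 156 to 175 CPM without salt (log2 fold change −1.19, adjusted p = 0.00854, weighted fit). Both genes were below the NaCl libraries in every KCl library. Cxcr4, the receptor for the chemokine CXCL12, went the other way with 32.9, 24.2 and 26.2 CPM with KCl and 9.06 and 12.1 CPM with NaCl, and 3.98 to 4.07 CPM without salt (log2 fold change 1.39, adjusted p = 0.0101, weighted fit). Xcr1, a chemokine receptor gene that also marks a class of dendritic cells, was at 16.6, 20.9 and 14.4 CPM with KCl and 5.50 and 3.72 CPM with NaCl (log2 fold change 1.88, adjusted p = 0.00683, weighted fit). Dendritic cell markers summed to 208 to 473 CPM in KCl libraries and 155 to 171 CPM in NaCl libraries, most of it Bst2, and Siglech was at 0 in both groups. Members of this list went both ways. Bst2, Batf3 and Clec9a were also higher in each KCl library, while Zbtb46, Ccr7 and Flt3 were lower in each, at low levels. Zbtb46 was at 1.34, 1.43 and 1.06 CPM with KCl and 1.57 and 2.23 CPM with NaCl. The part of dendritic cells in the Xcr1 value was not tested.

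Of 29 genes of Fc receptors, Src kinases and myeloid adaptors, 10 were lower and 2 higher in the weighted fit. The median was −0.18, or −0.38 with the length trend removed, and once the length slope was a covariate it turned to 0.05. Cd300e, an activating receptor gene of monocytes, was at 6.92, 7.13 and 9.38 CPM with KCl and 23.1 and 18.1 CPM with NaCl (log2 fold change −1.40, adjusted p = 0.0113, weighted fit). Fcgr2b, the inhibitory Fc receptor gene, was at 57.5, 62.8 and 74.8 CPM with KCl and 131 and 120 CPM with NaCl (log2 fold change −0.97, adjusted p = 0.0101, weighted fit). Both had been highest without salt, Cd300e at 109 to 117 CPM and Fcgr2b at 356 to 382 CPM. Csf3r, the G-CSF receptor gene, was at 18.2, 16.8 and 23.3 CPM with KCl and 34.3 and 38.3 CPM with NaCl (log2 fold change −0.91, adjusted p = 0.0119, weighted fit). It leads the neutrophil markers, whose summed level ranged over 45.3 to 53.1 CPM in KCl libraries and 65.1 to 68.2 CPM in NaCl libraries, with Elane, Retnlg and Stfa2l1 at 0 in both groups. The other neutrophil markers did not fall together with Csf3r. S100a9 was higher and Hdc lower in each KCl library, both at low levels, and S100a8, Mmp8 and Camp overlapped between the groups.

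Interferon-stimulated genes were lower in part. Of 39 tested, none passed in edgeR (0.0598% of all genes did), and 13 were lower and 2 higher in the weighted fit, with a median of −0.32, or −0.27 with the length trend removed. Mx1, an antiviral GTPase gene, was at 11.5, 10.97 and 13.4 CPM with KCl and 29.4 and 25.1 CPM with NaCl. Medium alone gave 10.49, 12.5 and 14.2 CPM, so that the KCl libraries overlapped medium alone and the NaCl libraries stood above it. Its log2 fold change was −1.19 (adjusted p = 0.0107, weighted fit). Oasl1, which restrains translation of Irf7, was at 4.90, 4.37 and 5.56 CPM with KCl and 11.5 and 11.2 CPM with NaCl (log2 fold change −1.19, adjusted p = 0.0114, weighted fit). The members higher with KCl were Bst2, the tetherin gene (log2 fold change 0.87), and Ifi35 (0.57), both from the weighted fit. Of 13 guanylate-binding and immunity-related GTPase genes, 3 were lower (23.1%, against 9.55% of all genes) and 0 higher in the weighted fit (median −0.42).

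**Figure D2:**
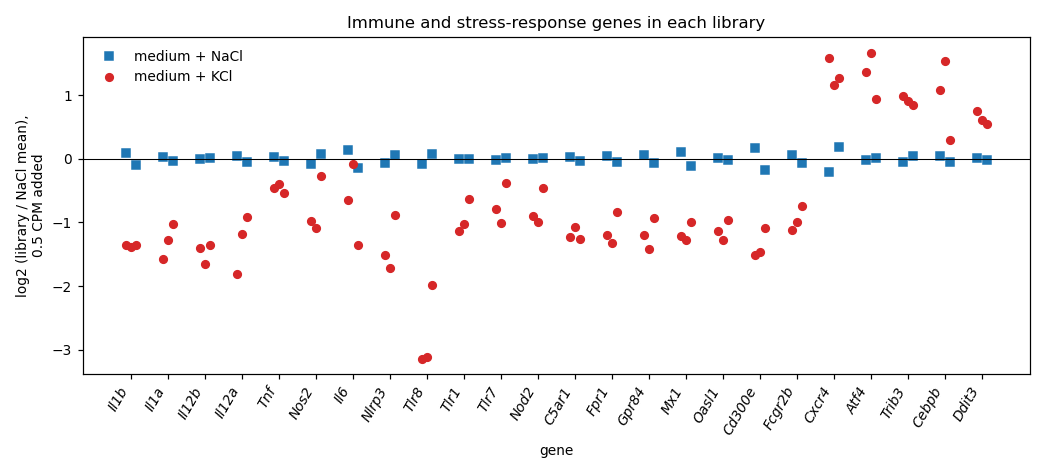
Log2 ratio of each library to the mean level of the 2 NaCl libraries, with 0.5 CPM added, for immune and stress-response genes named in the text. Blue squares are NaCl libraries and red circles KCl libraries, left to right KCl 1, 2 and 3. Genes from Il1b to Fcgr2b lie below 0 in the KCl libraries and Cxcr4, Atf4, Trib3, Cebpb and Ddit3 above it. Among the KCl libraries, KCl 3 lies nearest to 0 for all genes shown except Tnf, Il6, C5ar1 and Cxcr4, though by little for Il1b.

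Part of the genes of the stress response led by ATF4 went in the opposite direction. In this pathway, kinases that sense amino acid shortage or misfolded protein slow translation and let ATF4 be made, which turns on amino acid supply and death regulators. Of 24 genes, 8 were higher and 0 lower in the weighted fit (median 0.32, or 0.22 with the length trend removed). Atf4 itself was at 993, 1233 and 743 CPM with KCl and 383 and 391 CPM with NaCl, and at 294 to 301 CPM without salt (log2 fold change 1.34 and adjusted p = 0.0668 in edgeR, adjusted p = 0.00534 in the weighted fit). Once the length slope was a covariate, the Atf4 value was 0.69 (adjusted p = 0.106, edgeR). Trib3, a pseudokinase gene downstream of ATF4, was at 4.97, 4.64 and 4.44 CPM with KCl and 2.15 and 2.34 CPM with NaCl (log2 fold change 1.05, adjusted p = 0.0167, weighted fit). Ddit3, encoding the death regulator CHOP, had a log2 fold change of 0.65 (adjusted p = 0.016, weighted fit). Every KCl library lay above both NaCl libraries in these 3 genes. Cebpb, the gene of a transcription factor of myeloid cells, was at 1114, 1523 and 647 CPM with KCl and 545 and 509 CPM with NaCl (log2 fold change 0.96, adjusted p = 0.0227, weighted fit), and its sign turned once the length slope was a covariate (−0.19). Of 20 aminoacyl-tRNA synthetase genes, a separate list, 1 was higher and 3 lower in the weighted fit. Their median was −0.19, −0.22 with the length trend removed and 0.14 once the length slope was a covariate.

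Genes of salt and volume handling did not move as 1 group. Of 16 NFAT5 and osmolyte genes, 4 were higher and 4 lower in the weighted fit, with a median of −0.15 that turned to 0.12 once the length slope was a covariate. Slc38a2, a neutral amino acid carrier, was at 441, 426 and 448 CPM with KCl, 276 and 317 CPM with NaCl and 102 to 119 CPM without salt (log2 fold change 0.56, adjusted p = 0.0142, weighted fit). Slc6a12, the betaine carrier, was at 69.2, 62.0 and 80.7 CPM with KCl, 105 and 107 CPM with NaCl and 16.9 to 17.8 CPM without salt (log2 fold change −0.59, adjusted p = 0.0148, weighted fit). Both carriers were thus above medium alone with either salt, the former more with KCl and the latter more with NaCl. Akr1b3, which makes sorbitol, and Sgk1, a salt-responsive kinase, had log2 fold changes of 0.50 and 0.48 (adjusted p = 0.0186 and 0.0235, weighted fit). Nfat5 itself stood at −0.25 (adjusted p = 0.233, weighted fit). Of 17 chloride and volume-regulated anion channel genes, 7 were lower and 0 higher in the weighted fit (median −0.29, turning to 0.04 once the length slope was a covariate). Lrrc8c, a subunit of the volume-regulated anion channel, was at 16.2, 13.02 and 20.1 CPM with KCl and 34.6 and 29.9 CPM with NaCl (log2 fold change −0.98, adjusted p = 0.0119, weighted fit). Piezo1, a stretch-activated cation channel gene, was at 23.6, 31.9 and 82.0 CPM with KCl and 106 and 122 CPM with NaCl, with KCl 3 near medium alone (62.2 to 100 CPM), and its sign turned once the length slope was a covariate (−1.31 in edgeR, then 0.44).

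Ribosomal protein genes and nuclear genes of the respiratory chain were higher with KCl and short. Of 78 cytosolic ribosomal protein genes, 68 were higher and 0 lower in the weighted fit, with a median log2 fold change of 0.91. By library the median ratio to NaCl was 0.96 in KCl 1, 1.21 in KCl 2 and 0.50 in KCl 3, the order of their length slopes reversed in sign. The median longest transcript of these genes has 1077 bases, against 3186 for all genes tested. Removal of the length trend left a median of 0.40, and a fit holding the length slope as a covariate left 0.08. Rps19, a protein of the small subunit, was at 533, 592 and 458 CPM with KCl and 296 and 265 CPM with NaCl (log2 fold change 0.90 and adjusted p = 0.0668 in edgeR, adjusted p = 0.0101 in the weighted fit). Rplp2, a stalk protein of the large subunit, was at 1028, 2013 and 573 CPM with KCl and 389 and 330 CPM with NaCl (log2 fold change 1.55, adjusted p = 0.0293, weighted fit). Rplp2 varied widely over the KCl libraries, highest in KCl 2, and Rps19 much less. Ribosomal protein genes have many near-identical pseudogenes, between which the counting could split their reads.

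Of 74 nuclear respiratory chain genes, 52 were higher and 0 lower in the weighted fit. Their median was 0.75, or 0.22 with the length trend removed and −0.05 once the length slope was a covariate. Cox4i1, a subunit of cytochrome oxidase, was at 1014, 1321 and 636 CPM with KCl and 450 and 412 CPM with NaCl (log2 fold change 1.12, adjusted p = 0.0119, weighted fit). Of 11 tested genes encoded by the mitochondrial genome itself, 4 were lower and 0 higher in the weighted fit (median −0.26, or −0.69 with the length trend removed). mt-Co1, another cytochrome oxidase subunit, was at 2244, 2893 and 3735 CPM with KCl and 4685 and 4690 CPM with NaCl (log2 fold change −0.70, adjusted p = 0.0156, weighted fit). All KCl libraries lay below the NaCl libraries for mt-Co1 and above them for Cox4i1. Once the length slope was a covariate, mt-Co1 stood at −0.02 and Cox4i1 at 0.01 (adjusted p = 0.982 and 0.987, edgeR). The share of counts on the mitochondrial genome was 0.737%, 1.10% and 0.872% with KCl and 1.07% and 1.03% with NaCl, so the groups overlapped.

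**Figure D3:**
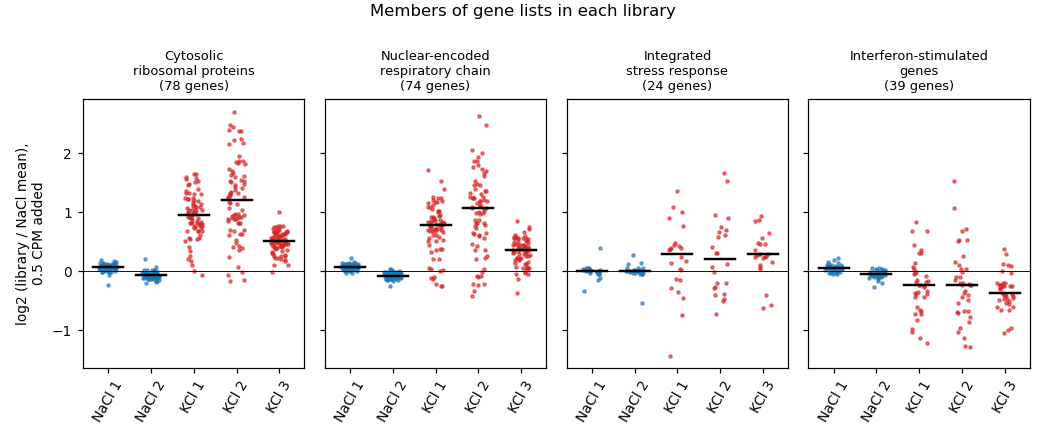
Log2 ratio of each library to the mean of the 2 NaCl libraries, with 0.5 CPM added, for every tested member of 4 gene lists. Points are genes (blue in NaCl libraries, red in KCl libraries, spread sideways for sight only) and black lines medians. Ribosomal protein and respiratory chain genes are highest in KCl 2 and lowest in KCl 3 among the KCl libraries, while the medians of the other lists differ less between them.

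Protein turnover genes leaned the same way with smaller values. Of 31 proteasome subunits, 16 were higher and 0 lower in the weighted fit (median 0.38, or 0.01 with the length trend removed). Of 34 lysosome and proton pump genes, 13 were higher and 2 lower (median 0.24, or 0.06). Ctsd, a lysosomal aspartic protease, was at 9564, 10154 and 7667 CPM with KCl and 6056 and 5788 CPM with NaCl (log2 fold change 0.60, adjusted p = 0.0119, weighted fit). Ctsc, the protease that activates granule serine proteases, was at 432, 448 and 526 CPM with KCl and 722 and 694 CPM with NaCl (log2 fold change −0.61, adjusted p = 0.0119, weighted fit). In both, the groups did not overlap. Sat1, the rate-limiting enzyme of polyamine breakdown, was at 2077, 2446 and 1586 CPM with KCl, 1047 and 1003 CPM with NaCl and 490 to 523 CPM without salt (log2 fold change 0.96, adjusted p = 0.0107, weighted fit). Ass1, which returns citrulline to arginine, was at 31.4, 27.4 and 41.6 CPM with KCl and 62.0 and 63.3 CPM with NaCl (log2 fold change −0.92, adjusted p = 0.0113, weighted fit). Once the length slope was a covariate, Ctsd, Ctsc, Sat1 and Ass1 stood at 0.19, −0.38, 0.33 and −0.43 (adjusted p = 0.531, 0.179, 0.328 and 0.353, edgeR).

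**Figure D4:**
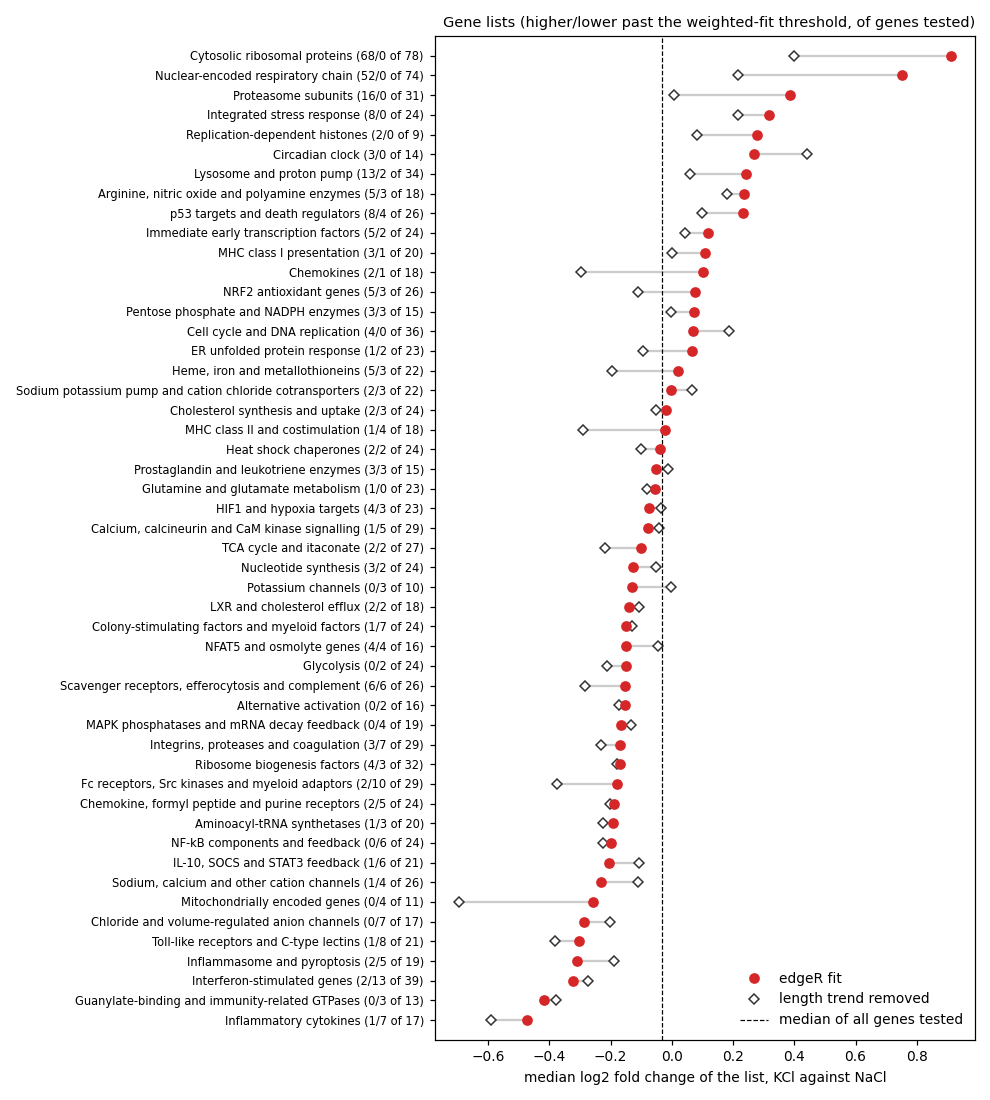
Median log2 fold change (KCl against NaCl) of the 50 pathway lists in the edgeR fit (red circles) and with the length trend removed (open diamonds). The dashed line is the median of all genes tested, and the numbers in brackets are members higher and lower in the weighted fit, of those tested. Ribosomal proteins (0.91) and respiratory chain genes (0.75) are highest and move left with the length trend removed, and inflammatory cytokines (−0.47) are lowest in the edgeR fit.

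Across all genes, the fifth with the shortest transcripts (57 to 1697 bases) had a median log2 fold change of 0.39, and the fifth with the longest (5090 bases and more) had −0.21. In the weighted fit, 28.2% of the shortest genes were higher and 2.28% lower, and of the longest 3.67% were higher and 15.8% lower. The median ratio of the shortest genes was 0.40 in KCl 1, 0.46 in KCl 2 and 0.21 in KCl 3. KCl 3 thus lay between the other KCl libraries and the NaCl libraries in the median of each length bin named here.

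**Figure D5:**
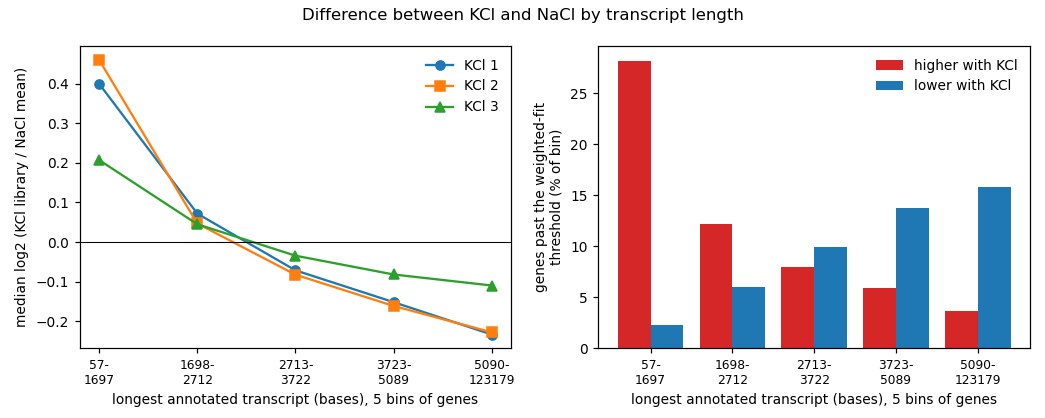
Genes in 5 bins of equal size by their longest annotated transcript. Left, median log2 ratio of each KCl library to the NaCl mean, with 0.5 CPM added; right, percent of each bin past the weighted-fit threshold, higher (red) and lower (blue) with KCl. The medians fall from short to long transcripts in every KCl library, least in KCl 3, from 0.21 to −0.11.

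Among genes called by the weighted fit and ranked by edgeR's log2 fold change, some had uneven levels over the KCl libraries. Nr2c2ap, encoding a nuclear receptor-associated protein, was at 37.4, 103 and 26.3 CPM with KCl and 13.99 and 9.95 CPM with NaCl (log2 fold change 1.93, adjusted p = 0.0288, weighted fit). Vcl, encoding the focal adhesion protein vinculin, was at 3.02, 3.12 and 9.81 CPM with KCl and 24.9 and 33.9 CPM with NaCl (log2 fold change −2.62, adjusted p = 0.011, weighted fit). Nr2c2ap was highest in KCl 2 and its sign turned once the length slope was a covariate (−0.16), while Vcl was low in all 3 KCl libraries and least so in KCl 3. With that covariate Vcl stood at −0.64 (adjusted p = 0.324, edgeR). The other genes named by fold change on the higher side were Rpl35a, Atp5e, Snrpe, Snhg8, Ndufa2, Zfas1, Rps14 and Srp9, with log2 fold changes from 1.72 to 1.89 in edgeR and 1.503 to 1.69 in the weighted fit, and KCl 2 was the highest library in each. On the lower side they were Med12, Atp7a, Atg9a, Ntng2, Gpatch2l, Bin2, Usp33, Arhgef11 and Gon4l, from −1.42 to −1.80 in edgeR and −1.51 to −2.02 in the weighted fit.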

How the data were processed

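RNA-seq counts per gene were analysed as deposited by the authors, 13503869 to 17048265 counts in the KCl libraries and 17499587 and 19391623 in the NaCl libraries. The deposited counts are whole numbers, not normalized. DESeq2 1.30.1 is named, with no role, per the submitters' processing notes; the aligner, strand setting and genome build were not given in the sources used here, so reads of antisense or overlapping genes cannot be told apart. Identifiers were matched to GENCODE M21 (GRCm38); 260 had no annotation (0.0121% of counts).

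KCl was tested against NaCl with edgeR 4.0.16 (quasi-likelihood, robust, TMM, low-count filter by group) in R 4.3.3, with Benjamini-Hochberg adjustment and a threshold of 0.05. Alternatives were DESeq2 1.42.0, limma 3.58.1 voom with group weights (the weighted fit), other scalings and filters, a fit of 11 C57BL/6J libraries, a replicate block, length corrections (loess span 0.5, or the slope as a covariate) and each library left out. The edgeR script was tested on simulated data. Figures used Python 3.11.15 and matplotlib 3.10.9. An exact permutation test of 3 against 2 libraries cannot go below p = 0.1.

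The members and lists were chosen with earlier results of these data known. Named genes were 8 chosen by name, the 12 highest and 12 lowest log2 fold changes among called genes (mean of at least 10 CPM, no overlap, at least 0.8 in size without any 1 library), and up to 4 members of each of 10 lists. As edgeR called few genes, the calls of the weighted fit were used here too. Genes and values outside this rule, such as Il1a, Nlrp3, Atf4, Cxcr4, Mx1 and Piezo1, were chosen after their values were seen. Apart from the lung list, 10 cell type lists were checked by summed level, and the macrophage, neutrophil, dendritic, and epithelial and endothelial lists are described above. Stromal and fibroblast markers summed to 887 to 1266 CPM in KCl libraries and 1255 to 1353 CPM in NaCl libraries. Of these 12 markers, 3 (25%) were lower and 0 higher in the weighted fit, where 9.55% of all genes were lower. The T and NK, B, mast, melanoma and erythroid lists are not described.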

Additional observations from a re-analysis of the deposited data

How the results depend on the processing

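The edgeR count of genes called, 8 (1 higher, 7 lower, 8 at least 2-fold), depends on the fit. It was 1998 (1333, 665, 565) with DESeq2, 2901 (1539, 1362, 857) without the low-count filter, 4591 (2233, 2358, 881) in the fit of 11 libraries and 2827 (1550, 1277, 598) in the weighted fit. It was 29 (3, 26, 26) with total-count scaling, which moved the median of all genes from −0.03 to −0.18. It was 39 (8, 31, 26) with the length trend removed, 136 (56, 80, 44) in the fit of 11 libraries once each library's length slope was a covariate, and 2369 (1308, 1061, 650) at a threshold of 0.10, which was chosen after seeing the data. The cause of these differences was not tested. Leaving out 1 library, over the edgeR, weighted and 11-library fits, gave 0 to 6989 genes called, 0 to 3336 higher, 0 to 3653 lower and 0 to 1739 at least 2-fold; leave-one-out runs of the latter fits were added after seeing the data.

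The replicate block gave 5516 genes (2687, 2829, 1570) in 5 libraries and 5811 (2755, 3056, 1187) in 11. Deviations from group means correlated above 0.1 across genes, which are not replicates, in 4 of 15 same-numbered pairs of libraries and 0 of 30 others; KCl 1 with NaCl 1 gave 0.0589 and KCl 2 with NaCl 2 gave −0.0553. Deviations from a group mean sum to 0 within the group, so the counts for same-numbered and other pairs are not independent and cannot settle the pairing. As the labels give no shared source and not every pair passed 0.1, the numbers were not taken as pairs.

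Under the length covariate, 21 named genes changed sign: Nos2 to 0.39, Vegfa 0.0344, Med12 0.0684, Atg9a 0.40, Arhgef11 0.18, Gon4l 0.0814 and Piezo1 0.44, and Nr2c2ap to −0.16, Rpl35a −0.17, Atp5e −0.19, Snrpe −0.54, Snhg8 −0.24, Ndufa2 −0.22, Zfas1 −0.16, Rplp2 −0.23, Rps14 −0.19, Srp9 −0.40, Atp5j2 −0.0793, S100a4 −0.0631, Bax −0.0273 and Cebpb −0.19. The cause was not tested. Of 90 named genes, 69 kept their direction there. Among those, genes not called there included Il12b (−1.04, adjusted p = 0.414, edgeR), Il12a (−0.84, 0.424), Oasl1 (−0.77, 0.315), Xcr1 (1.35, 0.328) and Lrrc8c (−0.66, 0.281). Genes called there included Cxcr4 (1.44, adjusted p = 0.0103, edgeR), Slc38a2 (0.84, 0.00396), Gpr84 (−0.79, 0.0398), Cd300e (−1.16, 0.0246) and Fcgr2b (−0.80, 0.0231). Sema4a and Kctd12 were not called with RLE factors or the stricter filter (adjusted p up to 0.0580, edgeR).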

Other observations

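Batf3, a transcription factor gene of dendritic cells, was at 10.1, 11.4 and 5.63 CPM with KCl and 2.99 and 3.32 CPM with NaCl. Of 14 circadian clock genes, 3 (21.4%) were higher and 0 lower in the weighted fit, where 11.6% of all genes were higher and 9.55% lower. Their median log2 fold change was 0.27, or 0.44 with the length trend removed. Rn7sk, a small nuclear RNA that restrains transcription elongation, was at 3.22, 82.1 and 4.06 CPM in KCl 1, 2 and 3 and at 2.04 and 1.37 CPM with NaCl, so that KCl 2 stood apart.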
